A study of Mus musculus with 15 samples.

Results

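The genes described here are 4 muscle ubiquitin ligases, Fbxo32, Trim63, Trim54 and Trim55, and 3 FoxO transcription factors, Foxo1, Foxo3 and Foxo4. They were picked by gene symbol, and all 7 were found among the 55401 genes of the tables and passed the filter on low counts, as 26862 genes did. RNA sequencing of the heart compared mice given isoproterenol, a beta-adrenergic agonist that makes the heart enlarge and scar, with mice given saline. Isoproterenol was given under the skin at 50 mg/kg/day for 4 days (4 mice), 8 days (3 mice) or 11 days (4 mice), and 4 saline mice served as controls. Every animal was a 12-week-old C57BL6 male of no stated genotype change, and the RNA came from the ventricles. When the saline hearts were taken is not given in the sources used here. Replicates are named by the letters of their labels, and p-values measure the spread between these hearts.

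The ubiquitin-proteasome system tags proteins with chains of ubiquitin and hands them to the proteasome for breakdown. The ligases are the last step of tagging and choose the substrate, and in striated muscle Fbxo32 (atrogin-1) and the Trim63 family (the muscle RING-finger proteins) act on sarcomere proteins and on signalling proteins of cell growth. FoxO factors are forkhead transcription factors that Akt phosphorylates and so keeps out of the nucleus, and in skeletal muscle they are known to switch on Fbxo32 and Trim63 during atrophy.

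Libraries held 25.4 to 117.8 M expected counts, of which 47.5 to 58.4% came from mitochondrial transcripts. Library 8-day A stood apart, since 15.8% of its counts fell on CT010467.1 and Lars2, against at most 0.0916% in the other libraries, and the 8-day comparison was also run without it. Cardiomyocyte markers summed to 37459.9 to 44112 CPM (counts relative to library size, scaled by TMM) in saline hearts, 34299.9 to 39413 CPM after 4 days, 32447 to 36763 CPM after 8 days and 37508 to 41644 CPM after 11 days. Markers of atria and of skeletal muscle were nearly absent, with sums of at most 1.14 CPM and 1.45 CPM in any library. All 8 fibroblast markers were higher after 4 days, with sums of 1057 to 4092 CPM, against 337 to 418 CPM in saline hearts, and so were all 7 macrophage markers, with sums of 110.2 to 158 CPM, against 61.9 to 93.8 CPM. Such sums are weighted to their most abundant genes. The highest CPM in any heart was 2351 for Col3a1, 695 for Col1a1 and 634 for Postn, against 49.6 for Pdgfra and 2.65 for Tcf21. Among cardiomyocyte markers Myh6 had a median of 18471 CPM over the hearts. Foxo4, among the least abundant of the 7 genes, had 313 to 2052 expected counts per library. In whole-tissue RNA, fewer cells of a type and less RNA per cell cannot be told apart.

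Per transcript length, the ligases stood above the FoxO factors. In FPKM (fragments scaled by transcript length and library size), the order of the group means was Trim63, Trim54, Fbxo32, Trim55, Foxo3, Foxo4 and Foxo1 in each of the 4 groups. After saline Trim63 stood at 44.0 ± 3.79 FPKM and Trim54 at 39.3 ± 8.71 FPKM (SD, n = 4), and the ranges of these neighbours overlapped. Fbxo32 stood at 16.0 ± 1.08 FPKM and Trim55 at 14.8 ± 1.19 FPKM in the same hearts, again with overlap. Foxo3 followed at 11.2 ± 0.765 FPKM, Foxo4 at 5.12 ± 0.714 FPKM and Foxo1 at 1.49 ± 0.128 FPKM in saline hearts, with no overlap between these. After 4 days no neighbours in the order overlapped. After 8 days Trim63 overlapped with Trim54, Trim54 with Fbxo32 and Trim55 with Foxo3, and after 11 days only Trim55 and Foxo3 did. The overlaps of Trim54 after 8 days came from 8-day A, where Trim63 stood at 40.6 FPKM and Trim54 at 26.5 FPKM. These ranges run across hearts. Within single hearts the order held except in saline B, with Trim54 (48.7 FPKM) above Trim63 (43.8 FPKM), and 11-day A, with Foxo3 (13.8 FPKM) above Trim55 (11.6 FPKM). The plot of levels per length shows that the FPKM range of Fbxo32 was clear of that of Trim55 in all treated groups but not after saline. Within each saline heart, though, Fbxo32 lay above Trim55.

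**Figure D1:**
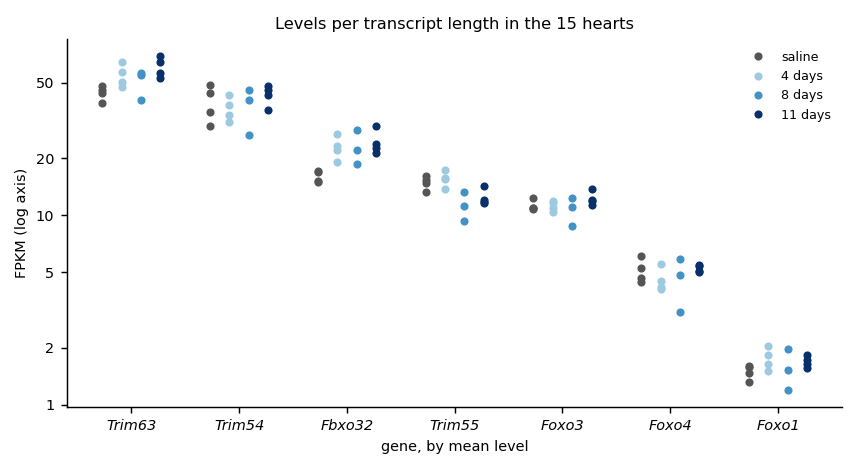
FPKM (log axis) of each gene in the 15 hearts, coloured by group, with genes in order of mean level. Trim63 is highest and Foxo1 lowest in each group, and Fbxo32 points of saline hearts, at 15 to 17.0 FPKM, lie next to those of Trim55, at 13.3 to 16.1 FPKM.

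After isoproterenol Fbxo32 was higher at 8 and 11 days, Trim63 higher and Trim55 lower at 11 days, and Foxo4 lower at 4 days. After 4 days 1 of the 7 genes, Foxo4, passed the threshold of an adjusted p under 0.05 in the quasi-likelihood test of edgeR, in the lower direction. Of all genes tested, 6.05% were called higher and 3.4% lower in that comparison. After 8 days 1 gene, Fbxo32, was called higher, where 1.07% of all genes were called higher and 1.2% lower. After 11 days Fbxo32 and Trim63 were called higher and Trim55 lower, 3 of 7, where 1.8% of all genes were called higher and 1.95% lower. Over the 4 groups together the edgeR F test called Fbxo32 (adjusted p = 0.00434), Trim55 (0.0102) and Foxo4 (0.0296), 3 of 7, against 13% of all genes. Trim63 missed the threshold of that test (adjusted p = 0.0507). Only Fbxo32 kept its call over the 4 groups with library totals alone (edgeR adjusted p of 0.0244 for Fbxo32, 0.0762 for Trim55 and 0.731 for Foxo4), and limma on log2 FPKM called none of these (0.0740, 0.0871 and 0.696). With effective lengths as offsets Foxo4 was lost as well (edgeR adjusted p = 0.0848). The 3 comparisons share the saline hearts. How many of all genes had groups with no overlap was not counted, so such separations below are descriptions only.

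**Figure D2:**
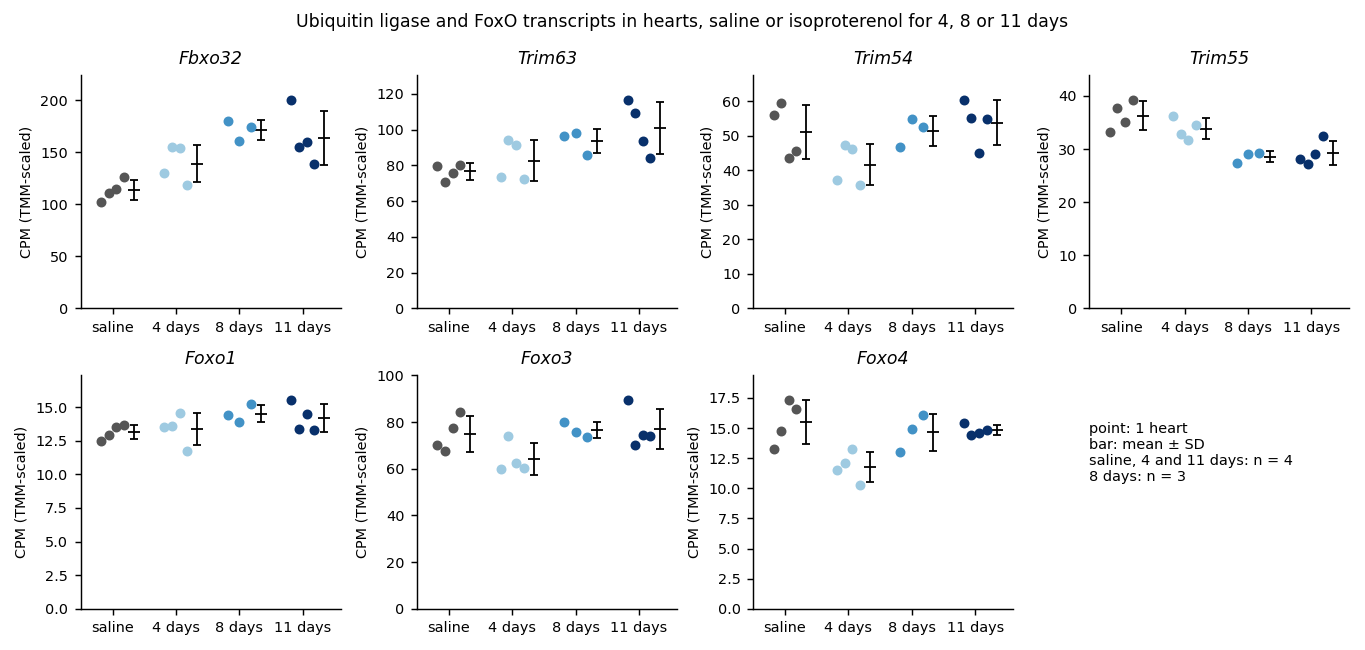
CPM of each gene in each heart (points) after saline or 4, 8 or 11 days of isoproterenol, with the group mean ± SD beside them. The Fbxo32 points at 8 and 11 days, 138 to 201 CPM, all lie above the saline points, 102 to 126 CPM, and the Trim55 points at these times, 27.1 to 32.4 CPM, all lie below the saline points, 33.2 to 39.3 CPM.

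Fbxo32 encodes atrogin-1, the F-box protein that brings substrates to an SCF-type ubiquitin ligase in striated muscle. The gene lies on the minus strand at chr15:58175879-58214932 (GRCm38) and has 1 protein-coding transcript of 9 exons. It stood at 102, 111, 115 and 126 CPM in saline hearts, at 129.7, 155, 154 and 118 CPM after 4 days, at 179.6, 161 and 174 CPM after 8 days and at 201, 155, 160.2 and 138 CPM after 11 days. Every 8-day and 11-day heart lay above every saline heart, while 4-day D, the lowest treated heart, lay within the saline range. At 8 days Fbxo32 averaged 172 ± 9.59 CPM (SD, n = 3), against 113 ± 9.75 CPM in saline hearts (n = 4), 1.51-fold higher with a log2 fold change of 0.59 ± 0.10 (SE, edgeR adjusted p = 0.00535). At 11 days it averaged 164 ± 26.3 CPM (n = 4), 1.43-fold higher (log2 0.52 ± 0.11, edgeR adjusted p = 0.0156). Both calls held without each library in turn, with adjusted p of 0.00559 to 0.0351 at 8 days and 0.0113 to 0.0493 at 11 days, and without 8-day A the 8-day log2 fold change was 0.54 (edgeR adjusted p = 0.0295). The 4-day mean of 139 ± 18.1 CPM was 1.23-fold that of saline hearts and did not pass (log2 0.30 ± 0.10, edgeR adjusted p = 0.0929). The choice of scaling moved the Fbxo32 calls. With library totals alone the 4-day change was 0.51 (edgeR adjusted p = 0.00925) and the 8-day change 0.52 (adjusted p = 0.367), and limma on log2 FPKM gave 0.50 at 4 days (adjusted p = 0.0458), 0.50 at 8 days (0.617) and 0.59 at 11 days (0.0667), so that the calls at 8 and 11 days were lost. Scaling by library totals alone set the median log2 fold change of genes of at least 5 CPM to 0.17 at 4 days, against -0.03 with TMM, and to -0.11 at 8 days, against -0.03 with TMM. With library totals alone 89.6% of the calls at 4 days were higher, against 64% with TMM, 37.4% at 8 days, against 47.2%, and 65.4% at 11 days, against 48%. Fibroblast marker sums at the later times were 538 to 1125 CPM after 8 days and 430.0 to 929 CPM after 11 days, against 337 to 418 CPM in saline hearts, and their part in the Fbxo32 change was not tested. Reads of Gm15943, an antisense gene within Fbxo32 at a mean of 1.60 CPM, cannot be told apart from those of Fbxo32 if strand was ignored in counting, since the strand setting is not given in the sources used here.

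Trim63 encodes the muscle RING-finger protein MuRF1, a ligase known to act on troponin I and on myosin chains. The gene lies on the plus strand at chr4:134315120-134329629 (GRCm38) and overlaps no other annotated gene. The DNA just before the start of Trim63 is printed because of the known FoxO motif in it, with that before Trim54, a family member, for comparison. Both are RefSeq sequences of GRCm38.p6, the 250 bases up to the RefSeq start site on the plus strand, at chr4:134314870-134315119 and chr5:31116362-31116611. The Trim63 window ends directly before the gene start given here. The Trim54 window ends short of the gene start given below, chr5:31116712, so the start site of Trim54 differs between these sources. The capitals mark the motif.
Trim63: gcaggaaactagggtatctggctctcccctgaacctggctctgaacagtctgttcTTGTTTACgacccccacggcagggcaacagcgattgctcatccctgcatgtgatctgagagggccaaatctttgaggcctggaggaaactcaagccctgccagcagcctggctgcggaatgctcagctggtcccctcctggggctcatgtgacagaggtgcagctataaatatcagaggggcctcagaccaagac
Trim54: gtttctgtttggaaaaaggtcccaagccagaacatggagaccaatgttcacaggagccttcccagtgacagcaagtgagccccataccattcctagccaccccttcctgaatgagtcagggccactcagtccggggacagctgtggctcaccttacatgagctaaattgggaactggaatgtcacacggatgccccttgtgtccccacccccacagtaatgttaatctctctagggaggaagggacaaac
The motif TTGTTTAC lies at -195 to -188 from the Trim63 start. Both strands were searched for TTGTTTAC (reverse complement GTAAACAA), which 350 of 32851 such windows hold (1.07%), and for GTAAACA (reverse complement TGTTTAC), which 1040 windows hold (3.17%). The Trim63 match counts under both, as these letters overlap. The windows of Trim54, Foxo1 and Foxo3 hold neither string. A match is a description of the letters and not a site of binding.

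The Trim63 rise was smaller than that of Fbxo32 and reached the threshold at 11 days only. Trim63 stood at 79.9, 70.5, 75.8 and 80.1 CPM in saline hearts, at 73.3, 94.1, 91.2 and 72.2 CPM after 4 days, at 96.3, 98.2 and 86.0 CPM after 8 days and at 117, 109, 93.3 and 84.3 CPM after 11 days. In CPM the 4-day hearts B and C lay above the saline range and A and D within it, and all 8-day and 11-day hearts lay above it. In FPKM 8-day A, at 40.6, lay within the saline range of 38.8 to 47.7, and 4-day A, at 50.2, lay above it. At 11 days Trim63 averaged 101 ± 14.8 CPM, against 76.6 ± 4.5 CPM in saline hearts (SD, n = 4 each), 1.31-fold higher (log2 0.39 ± 0.10, edgeR adjusted p = 0.0412). That call was lost on leaving out any of saline A, saline B, saline C, saline D, 11-day A, 11-day B and 11-day C, with edgeR adjusted p of 0.0515 to 0.140 and log2 fold changes of 0.31 to 0.47 over all libraries left out. At 8 days it averaged 93.5 ± 6.56 CPM (n = 3) with a log2 fold change of 0.28 ± 0.09 (edgeR adjusted p = 0.161), and at 4 days 82.7 ± 11.6 CPM (n = 4) with 0.12 ± 0.10 (edgeR adjusted p = 0.573). DESeq2 gave the 8-day change an adjusted p of 0.0447. Without 8-day A it was 0.24 (edgeR adjusted p = 0.395). The 11-day call was also lost with effective lengths as offsets (edgeR, 0.38, adjusted p = 0.0707) and with limma on log2 FPKM (0.45, 0.116).

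Trim55 encodes MuRF2, a ligase of the sarcomere that binds titin near the M band. The gene lies on the plus strand at chr3:19644474-19692421 (GRCm38), with BC002189, at a mean of 1.51 CPM, within its introns. Trim55 stood at 33.2, 37.7, 35.0 and 39.3 CPM in saline hearts, at 36.2, 32.8, 31.7 and 34.5 CPM after 4 days, at 27.3, 29.1 and 29.2 CPM after 8 days and at 28.2, 27.1, 29.0 and 32.4 CPM after 11 days. In CPM all 8-day and 11-day hearts lay below all saline hearts, with 11-day D the nearest, and the 4-day hearts overlapped with the saline hearts. In FPKM 11-day D, at 14.3, lay above saline D, at 13.3. At 11 days Trim55 averaged 29.2 ± 2.27 CPM, against 36.3 ± 2.71 CPM in saline hearts (SD, n = 4 each), a fold of 0.802 (log2 -0.32 ± 0.08, edgeR adjusted p = 0.0423). That call was lost on leaving out any of saline B, saline C, saline D, 11-day A, 11-day B and 11-day C, with edgeR adjusted p of 0.0596 to 0.153. At 8 days the mean was 28.5 ± 1.03 CPM (n = 3), with a log2 fold change of -0.35 ± 0.09 that missed the threshold (edgeR adjusted p = 0.0757, DESeq2 adjusted p = 0.0157). All groups in one edgeR fit also called it (adjusted p = 0.0221), and without 8-day A it was -0.34 (edgeR adjusted p = 0.193). At 4 days the log2 fold change was -0.10 (edgeR adjusted p = 0.554), and with library totals alone it was 0.11 (adjusted p = 0.601). With library totals alone the 11-day change was -0.24 (edgeR adjusted p = 0.298), and limma on log2 FPKM gave -0.26 (0.276).

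Trim54 encodes MuRF3, a relative that associates with microtubules and the Z-disc. The gene lies on the plus strand at chr5:31116712-31137630 (GRCm38), with the antisense gene Gm15469 at a mean of 0.495 CPM. It stood at 56.0, 59.6, 43.6 and 45.7 CPM in saline hearts, at 37.2, 47.3, 46.3 and 35.8 CPM after 4 days, at 46.7, 54.8 and 52.7 CPM after 8 days and at 60.5, 55.1, 44.9 and 54.8 CPM after 11 days. Saline hearts themselves fell apart, with A and B above C and D, and every treated group overlapped with them. Trim54 did not pass against saline at any time, with log2 fold changes of -0.29 ± 0.12 at 4 days (edgeR adjusted p = 0.168), -0.00 at 8 days (adjusted p = 1) and 0.06 at 11 days (adjusted p = 0.846). Without 8-day A the 8-day change was 0.05 (edgeR adjusted p = 0.925).

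The FoxO factors were near their saline levels at 8 and 11 days. Foxo4, on the plus strand at chrX:101254528-101260873 (GRCm38), is the member of the family whose level at 4 days was called lower. It stood at 13.2, 14.8, 17.3 and 16.6 CPM in saline hearts, at 11.5, 12.1, 13.2 and 10.2 CPM after 4 days, at 13.0, 14.9 and 16.0 CPM after 8 days and at 15.4, 14.4, 14.6 and 14.9 CPM after 11 days. The 4-day hearts were low but touched the saline range, since 4-day C lay just above saline A, the lowest saline heart. At 4 days Foxo4 averaged 11.8 ± 1.25 CPM, against 15.5 ± 1.84 CPM in saline hearts (SD, n = 4 each), a fold of 0.763 (log2 -0.39 ± 0.10, edgeR adjusted p = 0.0305). The call was lost on leaving out any of saline C, saline D, 4-day A and 4-day D (edgeR adjusted p of 0.0757 to 0.101), with effective lengths as offsets (0.0752) and with library totals alone, where the log2 fold change was -0.18 (adjusted p = 0.440), and limma on log2 FPKM gave -0.16 (0.551). In the F test over all groups Foxo4 was lost on leaving out any of saline C, saline D, 4-day A, 4-day B and 4-day D (edgeR adjusted p of 0.0506 to 0.110) and with effective lengths as offsets (0.0848). At 8 and 11 days the log2 fold changes were -0.09 and -0.07 (edgeR adjusted p of 0.833 and 0.762), and without 8-day A the 8-day change was -0.02 (0.975). As a group the 4-day hearts had the highest median sums of fibroblast and macrophage markers. Heart 4-day B lay below 8-day C in both, at 1057 against 1124.5 CPM and 110.2 against 111.3 CPM. Cardiomyocyte markers were called lower for 4 of 12 genes at 4 days, while their sum in 4-day B, 39413 CPM, lay within the saline range. The part of these markers in the Foxo4 difference was not tested.

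Foxo3, the factor most tied to Fbxo32 in skeletal muscle, is transcribed from the minus strand at chr10:42181841-42276755 (GRCm38). Its level was 70.0, 67.6, 77.3 and 84.5 CPM in saline hearts, 59.8, 74.0, 62.6 and 60.2 CPM after 4 days, 80.2, 75.7 and 73.4 CPM after 8 days and 89.5, 70.1, 74.5 and 73.9 CPM after 11 days. Of the 4-day hearts A, C and D lay below the saline range and B within it, and the later groups overlapped with it. The log2 fold change was -0.22 ± 0.10 at 4 days (edgeR adjusted p = 0.204) and 0.03 at both later times (adjusted p of 0.957 at 8 days and 0.909 at 11 days). Without 8-day A the 8-day change was -0.03 (edgeR adjusted p = 0.960). Foxo1, on the plus strand at chr3:52268336-52353221 (GRCm38), is the lowest of these genes per transcript length (FPKM) and lies over the genes Gm20402, antisense and at 0 CPM, and Gm38034, at 1.86 CPM. It ranged over 12.5 to 13.7 CPM in saline hearts, 11.7 to 14.6 CPM after 4 days, 13.9 to 15.2 CPM after 8 days and 13.3 to 15.5 CPM after 11 days. In CPM all 8-day hearts lay above all saline hearts by a small margin, with a log2 fold change of 0.14 ± 0.09 (edgeR adjusted p = 0.593). In FPKM these groups overlapped, at 1.20 to 1.97 after 8 days, against 1.32 to 1.60 after saline. The changes at 4 and 11 days were 0.03 and 0.10 (edgeR adjusted p of 0.895 and 0.579). Without 8-day A the 8-day change was 0.13 (edgeR adjusted p = 0.688).

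**Figure D3:**
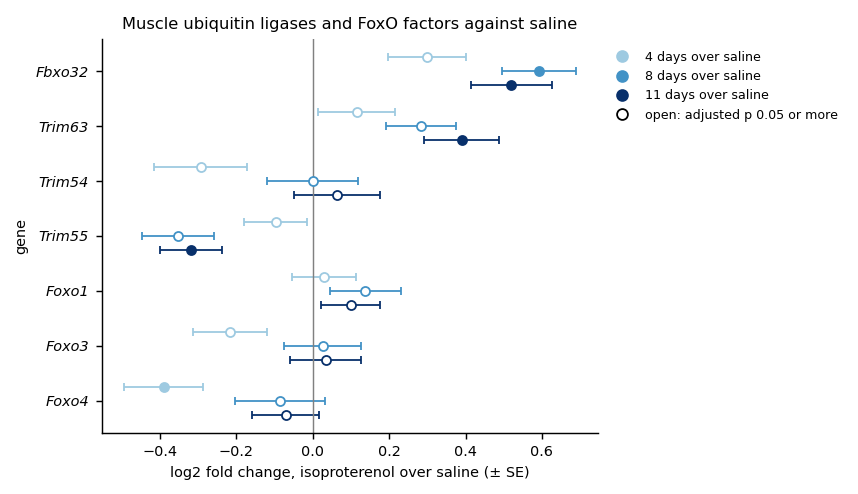
Log2 fold change of isoproterenol over saline ± SE for each gene at 4, 8 and 11 days, filled where the edgeR adjusted p was under 0.05. Fbxo32 is filled at 8 and 11 days, at 0.59 and 0.52, Trim63 at 11 days, at 0.39, Trim55 at 11 days, at -0.32, and Foxo4 at 4 days, at -0.39.

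The times of treatment were also compared with each other. Between 11 and 4 days, 2 of 7 genes were called higher and none lower, where 3.75% of all genes were called higher and 6.55% lower. These were Foxo4, at 14.8 ± 0.417 CPM after 11 days, against 11.8 ± 1.25 CPM after 4 days (log2 0.32 ± 0.08, edgeR adjusted p = 0.0182, no overlap), and Trim54, at 53.8 ± 6.47 CPM, against 41.6 ± 5.98 CPM (log2 0.36 ± 0.11, edgeR adjusted p = 0.0449, with overlap). The Foxo4 call was lost without 4-day A (edgeR adjusted p = 0.0634), the Trim54 call was lost on leaving out any of 4-day A, 4-day D, 11-day A, 11-day B and 11-day D (0.0942 to 0.140), and Foxo3 was called without 4-day B (0.0143). Both calls were also lost with library totals alone, at 0.19 for Foxo4 (edgeR adjusted p = 0.272) and 0.23 for Trim54 (0.220), and with limma on log2 FPKM, at 0.20 (0.331) and 0.24 (0.332). Trim55 was instead called lower with library totals alone (log2 -0.35, edgeR adjusted p = 0.0257), against -0.22 with TMM (0.0789). Trim54 was lost too with effective lengths as offsets (0.0648) and in one edgeR fit of all groups (0.0589). Fbxo32 did not differ by this test between 11 and 4 days (log2 0.23 ± 0.11, edgeR adjusted p = 0.261). Between 8 and 4 days none of the 7 genes was called by edgeR or by DESeq2, where edgeR called 0.0596% of all genes higher and 0.19% lower. By edgeR 5 of the 7 had an unadjusted p under 0.05, against 3101 of all 26862 genes. In TMM-scaled CPM Fbxo32 was higher in every 8-day heart than in every 4-day heart (log2 0.29 ± 0.11, edgeR adjusted p = 0.279), and Trim55 was lower in every 8-day heart than in every 4-day heart (log2 -0.25 ± 0.08, edgeR adjusted p = 0.219). In FPKM the times overlapped for Fbxo32, at 18.6 to 28.2 FPKM after 8 days, against 19.1 to 26.8 FPKM after 4 days, and its log2 change with library totals alone was 0.01 (edgeR adjusted p = 0.984). Between 11 and 8 days none of the 7 was called by edgeR or by DESeq2, where edgeR called 0.0596% of all genes higher and 0.0782% lower. By edgeR 0 of the 7 had an unadjusted p under 0.05, against 3021 of all 26862 genes.

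Reads of each gene were carried by 1 main transcript. Fbxo32-201 and Foxo1-201 took 100% of their genes in each group by RSEM, and Trim63-202 took 94.4 to 95.7% as group means. Foxo4-201 took 93.7 ± 4.76% of its gene after 4 days (88.0 to 98.2%), against 96.2 ± 1.57% in saline hearts (95.0 to 98.5%), with overlap. After 8 and 11 days it took 98.2% and 93.9%. At the level of transcripts none of the 7 main transcripts passed at any time with edgeR over 83065 transcripts, and DESeq2 was not run on transcripts. At an unadjusted p under 0.05 by edgeR were 2, 3 and 3 at 4, 8 and 11 days. The share of all transcripts at such a p was not counted. Few transcripts were called at all, 0.17% at 4 days, 0.00843% at 8 days and 0.0421% at 11 days. The log2 fold change of Fbxo32-201 was 0.58 ± 0.10 at 8 days (edgeR adjusted p = 0.257) and 0.53 ± 0.12 at 11 days (adjusted p = 0.231), close in size to that of the gene.

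Ratios within a heart do not depend on how libraries are scaled. They were chosen after the values were seen and are given with no test. The FPKM of Fbxo32 over that of Foxo3 was 1.43 ± 0.0865 in saline hearts, 2.02 ± 0.200 after 4 days, 2.14 ± 0.153 after 8 days and 1.98 ± 0.149 after 11 days. No treated heart, from 1.78 upward, reached down to the saline hearts, at most 1.55, also at 4 days. Trim63 over Trim55 was 2.97 ± 0.211 in saline hearts, 3.54 ± 0.651 after 4 days, 4.5 ± 0.353 after 8 days and 4.93 ± 0.984 after 11 days, and only the 4-day hearts overlapped with saline. Trim63 over Trim54 was 1.15 (0.900 to 1.32) in saline hearts and nearly the same in all 4-day hearts, 1.5 (1.48 to 1.53), with 1.37 and 1.41 after 8 and 11 days. Library 11-day A had the highest CPM of all 15 hearts for 5 of the 7 genes, Fbxo32, Trim63, Trim54, Foxo1 and Foxo3. For how many of all genes this library was the highest was not counted.

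**Figure D4:**
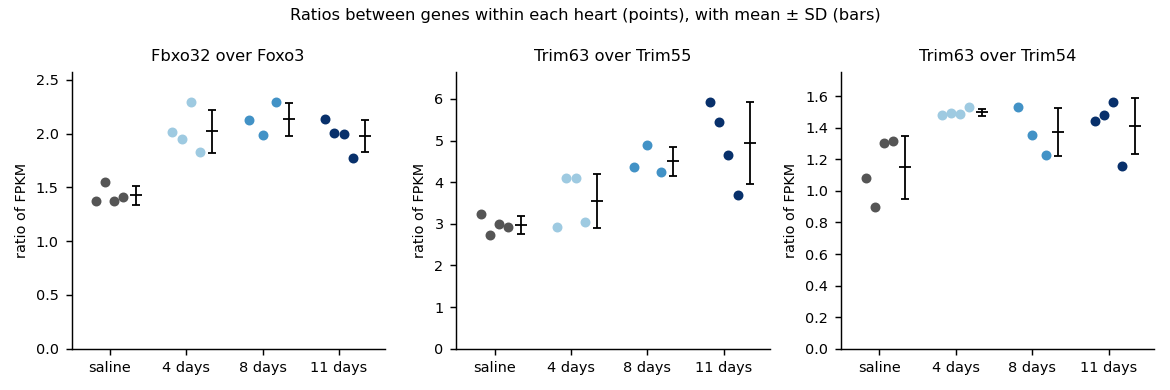
Ratio of the FPKM of pairs of genes in each heart (points) after saline or 4, 8 or 11 days of isoproterenol, with the group mean ± SD beside them. Fbxo32 over Foxo3 lies at 1.37 to 1.55 in saline hearts and at 1.78 or more in all treated hearts.

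The genes whose level most resembled that of each gene over the 15 hearts were found among 8533 genes by Pearson's r of log2(CPM + 0.5). These values are descriptions, as all points share libraries, scaling and treatment groups. They depend on the scaling, since by FPKM the r of Foxo3 was 0.50 with Herpud1 (rank 3670 of 8533) and 0.65 with Tfdp2 (rank 1115), and that of Foxo1 with Foxj3 was 0.59 (rank 5088). By FPKM the 3 genes named for Fbxo32 had r of 0.86 to 0.90 and ranks 7, 15 and 21. Fbxo32 was most like Glul, glutamine synthetase (r = 0.94), Gabarapl1, a protein of the autophagosome (0.93), and Sqstm1, an autophagy receptor for ubiquitin-tagged cargo (0.90). Glul was higher than in saline hearts at all 3 times, with log2 fold changes of 0.43 (edgeR adjusted p = 0.032), 0.95 (0.000758) and 0.92 (0.00147). Trim63 was most like Osbp2, an oxysterol-binding protein (0.89), Insig1, a sterol-dependent regulator (0.88), and Dhrs3, a retinaldehyde reductase (0.87). Dhrs3 was higher at 8 days (log2 0.65, edgeR adjusted p = 0.0065) and 11 days (0.82, 0.000737) and not called at 4 days (0.18, 0.398), and Osbp2 was higher at 11 days only (0.61, 0.00325). Trim55 was most like Ywhae (0.92), Rhoa, a small GTPase of the actin cytoskeleton (0.92), and Ctnna1, a catenin of cell junctions (0.90), and Ctnna1 was lower at 8 days (log2 -0.41, edgeR adjusted p = 0.0289) and 11 days (-0.37, 0.0113).

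Trim54 was most like Adprhl1 (0.95), a heart-expressed relative of ADP-ribosylhydrolases, then Ankrd11 and Nop14 (0.88 each). None of these was called against saline by edgeR at any time. For Foxo3 the closest were Wnk2, Herpud1 (0.93 each) and Tfdp2 (0.92), and Tfdp2, a partner of cell-cycle factors, was lower at 4 days (log2 -0.43, edgeR adjusted p = 0.0366). For Foxo4 they were Ubr2, a ligase of the N-end rule, Peg13 and Sec31b, a vesicle coat protein (0.87 each), and Peg13 (log2 -0.53, edgeR adjusted p = 0.00819) and Sec31b (-0.58, 0.00661) were lower at 4 days. Foxo1 had weaker likenesses, to Lzic (0.83), Tbc1d17 and Foxj3 (0.82 each).

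Among 23 other ubiquitin ligases of muscle, most did not pass at any time. Fbxl22, an F-box protein of the cardiac Z-disc, was called lower at 4, 8 and 11 days and stood at 11.4 ± 0.870 CPM in saline hearts, 8.36 ± 0.515 CPM after 4 days, 6.97 ± 1.19 CPM after 8 days and 7.59 ± 1.10 CPM after 11 days. Its log2 fold changes were -0.45, -0.72 and -0.60 (edgeR adjusted p of 0.00564, 0.00892 and 0.00678), the reverse direction to its fellow F-box gene Fbxo32. Asb2, the substrate receptor of a cullin ligase for filamins and desmin, rose at 8 days (log2 0.44, edgeR adjusted p = 0.0152) and 11 days (0.37, 0.0112). Its 8-day call was lost on leaving out any of saline A, 8-day A, 8-day B and 8-day C (0.0641 to 0.0796). Smurf1, a HECT-type ligase of Smad signalling, rose at 8 days (log2 0.39, edgeR adjusted p = 0.0398), a call lost without each library but saline B (0.0611 to 0.193). In all, 0 of 23 were called higher and 1 lower at 4 days, 2 and 1 at 8 days and 1 and 1 at 11 days, with median log2 fold changes of -0.03, -0.00 and 0.01, against 0.01, -0.01 and -0.01 over all genes. The 0 at 4 days stands beside 6 of 23 at an unadjusted p under 0.05 in either direction by edgeR and 4 called by DESeq2. Of all 26862 genes 5959 had such a p at 4 days, and DESeq2 called 3102 genes. Over all genes edgeR called 6.05% higher and 3.4% lower at 4 days, 1.07% and 1.2% at 8 days and 1.8% and 1.95% at 11 days. With 1 library left out, the count of lower genes at 4 days was 3 without saline B, and the count of higher genes at 8 days was 0 without saline A or any of the 8-day hearts and 1 without saline C or saline D. The counts at 11 days were 2 and 2 without saline B.

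Of 22 genes for ubiquitin, its activation and conjugation, and the SCF core, the lower calls fell on conjugating enzymes. Ube2b, Ube2d1 and Ube2d3 were the genes of this list called lower at 4 days (log2 -0.39, -0.34 and -0.29, edgeR adjusted p of 0.0192, 0.0495 and 0.0328). Ube2n, another conjugating enzyme, was lower at 8 days (log2 -0.43, edgeR adjusted p = 0.0475), a call lost without each library but saline B (0.0779 to 0.237). Rps27a, ubiquitin fused to a ribosomal protein, had log2 fold changes of -0.08, -0.39 and 0.07 (edgeR adjusted p of 0.656, 0.0557 and 0.754), and its 8-day change was called only without saline B (0.0316). The counts were 1 higher and 3 lower at 4 days, 1 and 1 at 8 days and 1 and 0 at 11 days. At 11 days 2 of 22 had an unadjusted p under 0.05 in either direction by edgeR, against 4617 of all 26862 genes. DESeq2 called 1 of the list at that time. The list's median log2 fold changes were -0.15, -0.09 and -0.07. Of all genes 6.05% were called higher and 3.4% lower at 4 days, 1.07% and 1.2% at 8 days and 1.8% and 1.95% at 11 days. The count of lower genes at 4 days was 0 without saline C, 4-day A or 4-day C and 1 without saline A or 4-day D, and at 8 days it was 2 without saline B and 0 without each other library.

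The proteasome subunits changed little against saline. Of 32 subunits, 1 was called lower at 4 days and 0 at 8 or 11 days by edgeR, and DESeq2 called 1, 0 and 1. At an unadjusted p under 0.05 by edgeR were 4, 4 and 1, against 5959, 3494 and 4617 of all 26862 genes. The median log2 fold changes were -0.10, -0.11 and 0.08 at 4, 8 and 11 days. None of the subunits was called higher against saline by edgeR. The shares of all genes called higher and lower at these times were 6.05% and 3.4%, 1.07% and 1.2%, and 1.8% and 1.95%. The subunit called at 4 days was Psmb3, of the proteasome core, at 14.5 ± 1.02 CPM, against 17.8 ± 1.15 CPM in saline hearts (log2 -0.30, edgeR adjusted p = 0.0359), a call lost on leaving out any of saline A, saline C, saline D, 4-day A, 4-day C and 4-day D (0.0532 to 0.109). Psmd4, a ubiquitin receptor of the proteasome cap, had log2 fold changes of -0.07, 0.07 and 0.26 (edgeR adjusted p of 0.637, 0.823 and 0.0545), and Psmc1, an ATPase of the cap, had -0.22, -0.09 and 0.13 (0.115, 0.746 and 0.369). Between 11 and 4 days 5 of 32 were called higher and 0 lower, namely Psma7, Psmc1, Psmc3, Psmd4 and Psmd6, where 3.75% of all genes were called higher and 6.55% lower. In that comparison 14 of 32 had an unadjusted p under 0.05 by edgeR, against 6228 of all 26862 genes. Between 11 and 8 days 0 of 32 were called, where 0.0596% of all genes were called higher and 0.0782% lower. There 19 of 32 had an unadjusted p under 0.05 by edgeR, against 3021 of all 26862 genes, and the list median was 0.18, against 0.00 over all genes.

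The reported FoxO targets that were called against saline by edgeR went in both directions. Gabarapl1 rose at each time, with log2 fold changes of 0.44, 0.70 and 0.65 (edgeR adjusted p of 0.00938, 0.00314 and 0.00844), and averaged 21.7 ± 1.62 CPM in saline hearts, 29.2 ± 3.41 CPM after 4 days, 35.3 ± 3.91 CPM after 8 days and 34.2 ± 6.74 CPM after 11 days. Pdk4, the kinase that shuts off pyruvate dehydrogenase, fell at each time, with 143 ± 36.9 CPM in saline hearts, 38.7 ± 6.45 CPM after 4 days, 53.7 ± 20.4 CPM after 8 days and 41.8 ± 6.25 CPM after 11 days (log2 -1.88, -1.42 and -1.78, edgeR adjusted p of 0.000111, 0.00836 and 9.54e-05). Both genes kept all 3 calls without each library in turn. Cdkn1a, the cell-cycle inhibitor p21, rose at 4 days (log2 1.3, edgeR adjusted p = 0.00299), at 4.74 ± 0.999 CPM, against 1.98 ± 0.790 CPM in saline hearts, and had 0.74 and 0.77 at the later times (0.153 and 0.118), which were called only without saline B (0.00437 and 0.0119). Gadd45a, a stress-induced gene, rose at 8 and 11 days (log2 0.78 and 0.54, edgeR adjusted p of 0.00925 and 0.0221), and Lpl and Prdx3 were lower at 4 days (-0.56 and -0.36, 0.00771 and 0.0479). Of 27 targets, 2 were called higher and 3 lower at 4 days, 2 and 1 at 8 days and 2 and 1 at 11 days, with median log2 fold changes of -0.07, 0.09 and 0.16, against 0.01, -0.01 and -0.01 over all genes. The shares over all genes were 6.05% and 3.4%, 1.07% and 1.2%, and 1.8% and 1.95%. In either direction 11, 11 and 14 of 27 had an unadjusted p under 0.05 by edgeR at 4, 8 and 11 days, and DESeq2 called 6 at each time. Of all 26862 genes 5959, 3494 and 4617 had such a p, and DESeq2 called 3102, 998 and 1635 genes. Between 11 and 4 days 7 were called higher and 1 lower, where 3.75% of all genes were called higher and 6.55% lower. The count of lower targets at 4 days was 6 without 4-day B, the count of higher targets was 1 without 8-day B at 8 days and without 11-day B or 11-day C at 11 days, and the count of lower targets at 11 days was 2 without saline B.

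Of 35 genes that control FoxO proteins, 1 was called higher and 5 lower at 4 days, 0 and 1 at 8 days and 0 and 1 at 11 days, where 6.05% and 3.4%, 1.07% and 1.2%, and 1.8% and 1.95% of all genes were called. The median log2 fold changes were -0.10, -0.08 and -0.10. Akt2, a kinase of FoxO proteins, averaged 62.8 ± 4.11 CPM in saline hearts, 46.4 ± 3.22 CPM after 4 days, 47.6 ± 1.46 CPM after 8 days and 55.2 ± 2.17 CPM after 11 days. It was called lower at 4 days (log2 -0.43, edgeR adjusted p = 0.00461) and 8 days (-0.40, 0.0325), not at 11 days (-0.19, 0.166), and the 8-day call was lost without each library but saline B (0.0563 to 0.148). Ywhag, an adaptor that holds phosphorylated proteins, FoxO factors included, in the cytoplasm, was lower at 4 days (log2 -0.34, edgeR adjusted p = 0.0217) and 11 days (-0.49, 0.00596), with -0.31 at 8 days (0.128). Its 4-day call was lost on leaving out any of saline C, 4-day C and 4-day D (0.0536 to 0.0756). Pik3r1, the regulatory subunit of PI3-kinase, was lower at 4 days only (log2 -0.49, edgeR adjusted p = 0.0262), a call lost on leaving out any of saline D, 4-day A, 4-day C and 4-day D (0.0553 to 0.0840). Kat2b and Prkaa2 were also lower at 4 days (log2 -0.32 and -0.28, edgeR adjusted p of 0.0315 and 0.0488). The counts of 0 higher stand beside 7 of 35 at an unadjusted p under 0.05 in either direction at 8 days and 11 of 35 at 11 days by edgeR, with 2 and 4 called by DESeq2. Of all 26862 genes 3494 and 4617 had such a p at these times, and DESeq2 called 998 and 1635 genes. The count of lower genes at 4 days was 3 without saline A, 2 without saline C, saline D or 4-day A and 1 without 4-day C or 4-day D, and the count of higher genes was 0 without saline A, saline C, 4-day A or 4-day C and 2 without 4-day B. Without saline B 1 gene was higher at 8 and at 11 days, and without saline A 2 were lower at 11 days.

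Other known regulators of Fbxo32 and Trim63 were measured for 14 of 15 genes, of which 0 were called higher and 2 lower at 4 days and 0 at 8 and 11 days by edgeR. In either direction 4, 1 and 1 had an unadjusted p under 0.05 by edgeR and DESeq2 called 3, 0 and 0. Of all 26862 genes 5959, 3494 and 4617 had such a p, and DESeq2 called 3102, 998 and 1635 genes. Among all genes edgeR called 6.05% higher and 3.4% lower at 4 days, 1.07% and 1.2% at 8 days and 1.8% and 1.95% at 11 days. The count at 4 days was 0 without saline C or any of 4-day A, C and D, and 1 without saline A or saline D, and at 11 days 1 was called without saline B, saline D or 11-day C. Klf15, a factor of the glucocorticoid response that restrains cardiac growth, stood at 12.0 ± 2.89 CPM after 4 days, against 18 ± 4.09 CPM in saline hearts (log2 -0.58, edgeR adjusted p = 0.0466), a call lost on leaving out any of saline C, saline D, 4-day A, 4-day C and 4-day D (0.106 to 0.140). Mstn, the growth inhibitor myostatin, was near the limit of detection at 0.0828 ± 0.0519 CPM after 4 days, against 0.281 ± 0.111 CPM in saline hearts (log2 -1.83, edgeR adjusted p = 0.0214), a call lost on leaving out any of saline A, saline C, 4-day A, 4-day C and 4-day D (0.0507 to 0.0971). Its 11-day change (-1.54, adjusted p = 0.0985) was called only without saline B or 11-day C (0.0342 to 0.0380). Hdac4, a deacetylase, had log2 fold changes of -0.23, 0.02 and 0.13 (edgeR adjusted p of 0.0893, 0.963 and 0.394). Foxo6, the remaining FoxO gene, lay below 1.3 CPM in all hearts and was not called by edgeR or DESeq2 (log2 0.03, -0.07 and -0.16).

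Of 16 binding partners and substrates of the ligases, Sqstm1 was called higher at each time. It averaged 121 ± 2.81 CPM in saline hearts, 163 ± 17.9 CPM after 4 days, 201 ± 5.86 CPM after 8 days and 179 ± 8.56 CPM after 11 days (log2 0.43, 0.72 and 0.55, edgeR adjusted p of 0.00801, 0.000653 and 0.000718), and kept these calls without each library in turn. A pair of sarcomere genes was lower at 4 days. Myl2, the ventricular myosin light chain, averaged 1583 ± 176 CPM, against 2634 ± 355 CPM in saline hearts (log2 -0.73, edgeR adjusted p = 0.00169), and Tnni3, cardiac troponin I, 1117 ± 116 CPM, against 1581 ± 299 CPM (-0.50, 0.027). The Tnni3 call was lost on leaving out any of saline A, saline D, 4-day A, 4-day C and 4-day D (0.0733 to 0.0854). Des, the muscle filament desmin, and Mybpc3, a thick-filament protein, were higher at 4 days (log2 0.54 and 0.38, edgeR adjusted p of 0.00859 and 0.0335), and Myh7, the myosin heavy chain that rises in stressed hearts, was higher at 11 days (0.87, 0.035). The counts were 3 higher and 2 lower at 4 days, 1 and 0 at 8 days and 2 and 0 at 11 days. By edgeR 6 of 16 had an unadjusted p under 0.05 at each time, against 5959, 3494 and 4617 of all 26862 genes. DESeq2 called 3 of the list at 8 days and 4 at 11 days, against 998 and 1635 of all genes. The list medians were -0.04, -0.00 and -0.00. For all genes the shares called higher and lower were 6.05% and 3.4% at 4 days, 1.07% and 1.2% at 8 days and 1.8% and 1.95% at 11 days. The count of lower genes at 4 days was 1 without saline A, saline D or any of 4-day A, C and D, the count of higher genes at 8 days was 2 without saline B, and at 11 days it was 1 without saline C or any of the 11-day hearts. In the pathway plot the genes filled at all 3 times are Gabarapl1 and Sqstm1 on the higher side and Fbxl22 and Pdk4 on the lower side.

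**Figure D5:**
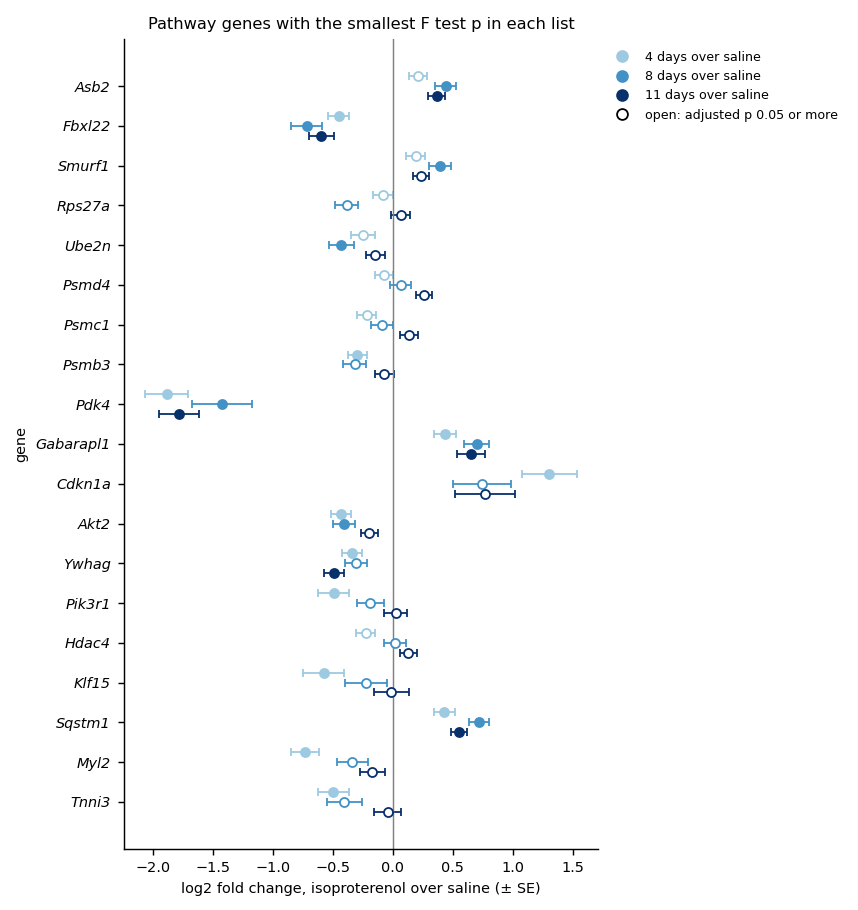
Log2 fold change of isoproterenol over saline ± SE at 4, 8 and 11 days for the named genes of the pathway lists, filled where the edgeR adjusted p was under 0.05. Gabarapl1 (0.44, 0.70 and 0.65) and Sqstm1 (0.43, 0.72 and 0.55) are higher at all times, and Fbxl22 (-0.45, -0.72 and -0.60) and Pdk4 (-1.88, -1.42 and -1.78) are lower.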

How the data were processed

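RNA of 15 hearts was sequenced as total RNA. Per the submitters' processing notes, the authors used cutadapt 4.1, HISAT2 2.2.1 and RSEM 1.3.3 with GRCm38.p6. The authors deposited expected counts per gene and transcript, which are not normalized, FPKM, which RSEM scales by effective length and library total, and effective lengths. The percent of a gene that each transcript takes was also deposited. A further 8-day library, left out by the study on quality grounds, was not analysed here.

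Expected counts were rounded, genes were kept if their counts added up to 10 or more over the 15 libraries, and each comparison had its own fit (TMM, quasi-likelihood test of edgeR 4.0.16 in R 4.3.3, two-sided, Benjamini-Hochberg over all genes tested, threshold 0.05). SE is the size of the log2 fold change over the square root of F. CPM values use TMM-scaled totals. Scripts were tested on simulated data. Gene positions came from GENCODE M21, which held 55141 of 55401 identifiers with versions ignored. The promoter table held 4 of the 7 genes, and no protein sequences were used. The deepest library held 117.8 M counts and the shallowest 25.4 M, and no libraries were duplicates. Replicate letters were not taken as pairs.

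Members and lists were chosen with earlier results of these data known. Named genes are the 7 members, the 3 genes most like each by r among genes of at least 5 CPM, and the 3 genes of each list with the smallest p over all groups; Gadd45a, Lpl, Prdx3, Ube2b, Ube2d1, Ube2d3, Kat2b, Prkaa2, Mybpc3, Des, Myh7 and the 5 proteasome subunits called between 11 and 4 days were named after their values were seen. Values of these and of the likeness genes outside the lists under the alternatives were not examined. A pair of genes that these lists hold is not reported here by name. Alternatives were other scalings, filters and tools (DESeq2 1.42.0, limma 3.58.1 with voom or on log2(FPKM + 0.1)), effective lengths as offsets, robust dispersions, all groups in one fit, a replicate block, a threshold of 0.01 and each library left out.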

Additional observations from a re-analysis of the deposited data

Results flagged for a closer look

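In 4 of 87 groups (29 genes, 3 groups of 4 hearts each) a heart lay far from the others of its group by Dixon's criterion at 95%, and chance alone gives that in about 1 in 20 groups. Ywhag stood at 60.8 CPM in saline A, against 67.5 to 68.8 CPM in the other saline hearts. Pik3r1 stood at 165 CPM in saline D, against 122 to 124 CPM. Mstn stood at 0.215 CPM in 11-day C, against 0.0551 to 0.0697 CPM, and Tnni3 at 1289 CPM in 4-day B, against 1045 to 1082 CPM.

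Among 29 genes, the 7 and the named list genes, the following 11 differed between 2 times of treatment in the direct edgeR test, all higher at the later time. The named list genes were picked by their p over these same groups, so the count is a description only. Of all genes 3.75% were called higher and 6.55% lower between 11 and 4 days, and 0.0596% and 0.0782% between 11 and 8 days. Between 11 and 4 days the log2 difference was 0.36 for Trim54 (adjusted p = 0.0449), 0.32 for Foxo4 (0.0182), 0.36 for Psmc1 (0.00347), 0.34 for Psmd4 (0.0053), 0.52 for Pik3r1 (0.00508), 0.24 for Akt2 (0.0353), 0.57 for Klf15 (0.0219), 0.36 for Hdac4 (0.00496), 0.46 for Tnni3 (0.00406) and 0.56 for Myl2 (0.0024). Between 11 and 8 days it was 0.45 for Rps27a (edgeR adjusted p = 0.0427). The Trim54 and Foxo4 calls were lost under several alternatives, as given above. For the named list genes the differences between times were not examined under the alternatives.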

How the results depend on the processing

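Over the 7 genes, 978 of 1050 results under the alternatives stayed on their side of the threshold and direction of call, 58 calls were lost, 14 were gained and 0 reversed. For the named list genes the values were 1217 of 1362, with 117 lost and 28 gained. Calls of all genes are given in the order 4, 8 and 11 days against saline, 8 against 4, 11 against 4 and 11 against 8 days, then all groups, where the values above are 2540, 610, 1006, 67, 2766, 37 and 3489. With libraries left out in turn they ranged over 1387 to 2973, 259 to 912, 527 to 1422, 0 to 719, 1437 to 3913, 3 to 114 and 2198 to 3890. Of the 7 genes 0 to 1 were called at 4 days, 1 to 3 at 11 days, 0 to 3 between 11 and 4 days and 2 to 4 over all groups. At a threshold of 0.01 the calls of all genes were 1159, 235, 319, 0, 1150, 3 and 1719, and of the 7 genes 0 at 4 days, 0 at 11 days, 0 between 11 and 4 days and 1 over all groups. Limma on log2 FPKM called 1005, 5, 121, 3, 646, 7 and 862 genes, and 0 of the 7 at 8 days, at 11 days, between 11 and 4 days and over all groups. With library totals alone 635 genes were called at 11 days, 535 between 8 and 4 days and 82 between 11 and 8 days, and of the 7 genes 0 at 8 days, 1 between 11 and 4 days and 1 over all groups. Effective lengths as offsets gave 360 at 8 days, 638 at 11 days, 17 between 8 and 4 days and 11 between 11 and 8 days, and of the 7 genes 0 at 4 days and 1 between 11 and 4 days. All groups in one fit gave 964 at 8 days, 273 between 8 and 4 days and 1 between 11 and 8 days, and of the 7 genes 2 at 8 days and 1 between 11 and 4 days. DESeq2 called 998 at 8 days, 1635 at 11 days, 547 between 8 and 4 days and 312 between 11 and 8 days, and 3 of the 7 at 8 days. Between 8 and 4 days and between 11 and 8 days the calls were 663 and 297 with no filter, 3 and 4 with filterByExpr, 135 and 124 with robust dispersions, and 0 and 3 with voom. Scaling by library totals alone, and likewise limma on log2 FPKM, lost the calls of Fbxl22, Psmb3, Akt2, Ywhag, Pik3r1, Klf15 and Tnni3 at 4 days, of Asb2, Smurf1, Ube2n, Gabarapl1, Akt2 and Sqstm1 at 8 days and of Fbxl22 and Ywhag at 11 days. The cause of these moves was not tested.

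With the replicate letter as a block, the paired fit called 2080, 694 and 1108 genes at 4, 8 and 11 days, 425 between 8 and 4 days and 210 between 11 and 8 days. The replicate block changed 0 of 49 calls of the 7 genes and lost 7 of 66 of the named list genes, namely Psmb3, Ywhag, Mstn and Klf15 at 4 days and Smurf1, Ube2n and Akt2 at 8 days. Correlations of same-lettered hearts were over 0.1 in 1 of 4, 0 of 3 and 0 of 4 pairs at 4, 8 and 11 days against saline, in 2 of 3 between 8 and 4 days, 1 of 4 between 11 and 4 days and 0 of 3 between 11 and 8 days, so that no comparison had every pair over 0.1. With 3 to 4 hearts a group, a call near the threshold turns on single hearts, as for Trim63, Trim55 and Foxo4.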
